A study of Homo sapiens with 12 samples.

Results

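A group of 10 enzymes that make and inactivate androgens was followed in RNA-seq libraries of the human prostate cancer line C4.2B, a castration-resistant descendant of LNCaP. The 10 genes were taken by name from a count table of 58735 genes. They were HSD3B1, AKR1C3, SRD5A1, SRD5A3, HSD17B6 and HSD17B4, which act on steroid precursors and active androgens, and the UDP-glucuronosyltransferases UGT2B15, UGT2B17, UGT2B11 and UGT2B28. The cells were in 4 arms with 3 libraries each. The DMSO arm received vehicle, the AKTi arm received the AKT inhibitor ipatasertib at 0.25 μM, the EZH2i arm received the EZH2 inhibitor tazemetostat at 1 μM, and the combination arm received both agents at these doses. Tazemetostat was given for 6 days ahead of the final treatment in the EZH2i and combination arms, and every arm was collected after 24 hours in medium with charcoal-stripped serum, which is depleted of steroids. All 12 libraries come from this 1 cell line.

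Dihydrotestosterone, the strongest natural androgen, is made in tumor cells from adrenal precursors after castration. HSD3B1 turns dehydroepiandrosterone into androstenedione, AKR1C3 reduces androstenedione to testosterone, and the SRD5A enzymes reduce the steroid ring, which yields dihydrotestosterone. HSD17B6 can oxidize androstanediol back to dihydrotestosterone, and HSD17B4 is a peroxisomal enzyme that oxidizes steroids and also takes part in the breakdown of fatty acids. UGT2B15 and UGT2B17 attach glucuronic acid to dihydrotestosterone and its metabolites, which ends their activity and lets cells export them. In prostate cancer cells UGT2B15 and UGT2B17 are known as genes that androgens repress.

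These enzymes include near-identical copies, and the reads of such genes can be assigned to the wrong copy or lost. The coding starts of 4 UGT2B genes and of 3 AKR1C genes are shown because they let a reader see how alike the copies are. They are the first 60 coding bases of the GENCODE v44 MANE Select transcripts, with coordinates on hg38 and with capitals where a base differs from UGT2B15 or, for the AKR1C genes, from AKR1C3.
UGT2B15, chr4:68670559-68670618, minus strand: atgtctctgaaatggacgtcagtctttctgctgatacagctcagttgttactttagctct
UGT2B17, chr4:68568425-68568484, minus strand: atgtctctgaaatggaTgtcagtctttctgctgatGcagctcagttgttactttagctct
UGT2B11, chr4:69214663-69214722, minus strand: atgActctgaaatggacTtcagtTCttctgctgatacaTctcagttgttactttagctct
UGT2B28, chr4:69280501-69280560, plus strand: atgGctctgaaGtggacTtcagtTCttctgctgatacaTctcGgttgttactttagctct
AKR1C3, chr10:5094445-5094504, plus strand: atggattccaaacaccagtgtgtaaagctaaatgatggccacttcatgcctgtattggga
AKR1C1, chr10:4963445-4963504, plus strand: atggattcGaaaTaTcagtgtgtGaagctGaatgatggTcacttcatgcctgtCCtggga
AKR1C2, chr10:5003776-5003835, minus strand: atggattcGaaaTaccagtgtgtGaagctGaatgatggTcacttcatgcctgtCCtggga
Over these 60 bases UGT2B17 differed from UGT2B15 at 2 positions, UGT2B11 at 5 and UGT2B28 at 7. Over the whole coding sequence of 1590 bases UGT2B15 and UGT2B17 differed by 55 substitutions, an identity of 96.5%. UGT2B11 and UGT2B28 were 97.0% identical to each other and 84.8% and 84.1% identical to UGT2B15. AKR1C3 was 91.4% identical to AKR1C1 and 91.0% identical to AKR1C2, and those neighbors were 98.04% identical to each other.

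A read can be placed on 1 copy only where its bases differ. Of all windows of 100 bases along the UGT2B15 transcript, 12.4% occurred without a mismatch in a transcript of another gene, and the share was 10.6% for UGT2B17, 9.22% for UGT2B11, 5.63% for UGT2B28 and 7.82% for AKR1C3. With windows of 150 bases the share fell below that at 100 bases for each of these genes, to 4.74% for UGT2B15, 4.03% for UGT2B17 and 2.12% for AKR1C3. HSD17B4 and HSD17B6 shared no window of 50, 100 or 150 bases. SRD5A3 shared 36.4% of its windows of 100 bases, with a readthrough gene model (ENSG00000288695) that covers SRD5A3 in GENCODE v44. Among the genes counted here, only SRD5A3-AS1 and the processed pseudogene FCF1P8 overlap SRD5A3, so no such model was among them. HSD17B6 overlaps the end of PRIM1, a gene on the other strand, by 213 bases of its span, and SRD5A3 overlaps SRD5A3-AS1 by 9126 bases. PRIM1 had 3457 counts over the 12 libraries against 340 for HSD17B6, and SRD5A3-AS1 had 322 against 7788 for SRD5A3. Whether the counting used the strand is not given in the sources used here, so reads in these overlaps cannot be attributed with certainty. The read length is not given either.

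**Figure D1:**
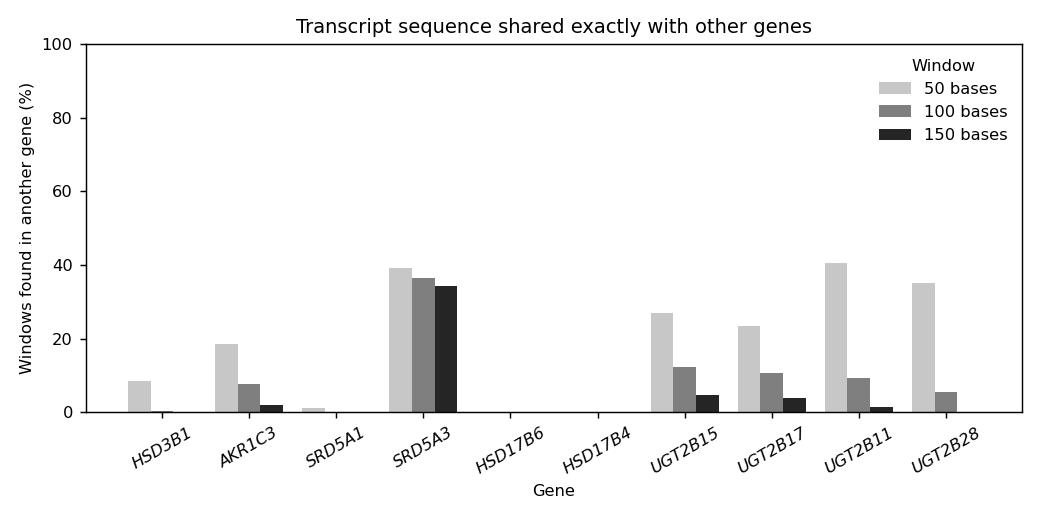
Share of windows along each gene's MANE Select transcript that occur exactly in a transcript of another gene, in percent, for windows of 50, 100 and 150 bases. Bars fall with longer windows for the UGT2B genes and AKR1C3, stay at 36.4% and 34.4% for SRD5A3 at 100 and 150 bases, and are at 0 for HSD17B4 and HSD17B6.

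Promoter sequence was available for 7 of the 10 enzymes in RefSeq on GRCh38.p14, and the 250 bases before each start site were searched on both strands. The 4 motifs were AGAACA, a steroid receptor hexamer, TGTTTAC, a forkhead motif, CACGTG, the E-box, and TGACNNNGC, the core of the antioxidant response element. The promoters of UGT2B15, AKR1C3 and HSD3B1 are shown because these genes had the largest changes described below, and capitals mark motif matches.
UGT2B15 promoter, chr4:68670653-68670902, minus strand: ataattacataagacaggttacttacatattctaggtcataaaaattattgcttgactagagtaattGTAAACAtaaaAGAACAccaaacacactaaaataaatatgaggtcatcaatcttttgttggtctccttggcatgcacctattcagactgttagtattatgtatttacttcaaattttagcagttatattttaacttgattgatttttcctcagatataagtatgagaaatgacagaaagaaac
AKR1C3 promoter, chr10:5094164-5094413, plus strand: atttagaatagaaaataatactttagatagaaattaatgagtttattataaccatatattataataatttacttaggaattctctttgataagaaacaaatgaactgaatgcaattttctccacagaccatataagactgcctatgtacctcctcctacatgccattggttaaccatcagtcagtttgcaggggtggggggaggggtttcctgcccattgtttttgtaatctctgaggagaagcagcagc
HSD3B1 promoter, chr1:119506953-119507202, plus strand: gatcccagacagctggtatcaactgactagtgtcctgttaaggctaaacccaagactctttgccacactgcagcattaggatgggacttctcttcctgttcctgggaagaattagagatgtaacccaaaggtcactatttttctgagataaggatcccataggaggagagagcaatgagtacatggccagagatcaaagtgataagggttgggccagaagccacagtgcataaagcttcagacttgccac
The UGT2B15 window held 1 match to TGTTTAC and 1 to AGAACA, which do not overlap. Among all 35116 promoter windows of this length, 2.98% held TGTTTAC and 12.4% held AGAACA on either strand. For AKR1C3 and HSD3B1 the windows shown held no match to any of the 4 motifs, and neither did the window of the other listed start of each gene. None of these 3 promoters held a CpG dinucleotide, whereas the SRD5A1 window held 28, the SRD5A3 window 23 and the HSD17B4 window 14. The median over all promoter windows was 11 and 6.06% of them had none. The UGT2B11 window held 1 CpG and 1 match to TGACNNNGC, a motif found in 10.9% of windows. The SRD5A3 window held 1 match to CACGTG, found in 6.34% of windows, and 1 to TGACNNNGC.

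The authors' raw counts per gene were the starting point, with totals of 14133755 to 22276417 per library. Levels are given as CPM, counts scaled to a common library total, after TMM scaling, and changes as log2 fold changes of edgeR's quasi-likelihood test with the standard error (SE) and a p-value adjusted by Benjamini-Hochberg over the 16646 genes tested, called below 0.05. The 3 libraries of an arm come from plates seeded in parallel from 1 line, per the methods, so the p-values measure the spread between such plates. In bulk RNA, fewer cells that express a gene and less RNA per cell cannot be told apart. The luminal identity of the line was visible, as all 7 prostate luminal markers read here were tested and their summed level was 3502 to 3611 CPM in DMSO. It was 5219 to 5333 CPM with AKTi, 5841 to 6010.5 with EZH2i and 7220.2 to 7432 with the combination. KLK3 alone had a mean of 1372 CPM in DMSO, 2342 with AKTi, 2890 with EZH2i and 3941 with the combination. Against DMSO, mean KRT18 was lower with AKTi (256 against 289 CPM) and FOLH1 with EZH2i (927 against 998). HOXB13 was lower with the combination (294 against 424), and in each treated arm the other markers had higher means than in DMSO. The 3 basal markers summed to at most 0.368 CPM in any library, with 1 of them at 0 throughout. The hepatocyte markers ALB, APOA1 and SERPINA1, which mark the cell type with the highest UGT2B levels, summed to 0.0738 to 0.527 CPM in DMSO, 0.140 to 0.506 with AKTi, 0.505 to 1.61 with EZH2i and 0.846 to 1.47 with the combination. The 3 fibroblast markers summed to 4.32 to 6.87 CPM in DMSO, 4.27 to 6.40 with AKTi, 15.2 to 17.9 with EZH2i and 9.79 to 14.9 with the combination. Nearly all of this was COL1A1, with 271 counts over the DMSO arm and 905 over the EZH2i arm, whereas DCN had 1 and 9 counts and COL1A2 had 0 in both. The 2 endothelial markers summed to 2.11 to 2.95 CPM in DMSO, 3.48 to 4.34 with AKTi, 5.70 to 6.50 with EZH2i and 5.07 to 7.38 with the combination. Nearly all of this was VWF, with 124 counts over the DMSO arm and 318 over the EZH2i arm, whereas PECAM1 had 0 and 1. The part of these markers in the results was not tested.

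Of the 10 enzymes, 9 passed the filter on low counts, and UGT2B28 did not. AKR1C3 and HSD3B1 reached 10 counts only in libraries exposed to tazemetostat, so a difference between arms was a condition of their being tested. The calls and medians below include both, and both are among the 3 enzymes called higher in EZH2i. In AKTi against DMSO, 4 enzymes were called, 3 higher and 1 lower, where 42.5% of all tested genes were called, 20.6% higher and 21.9% lower. EZH2i against DMSO gave 6 calls, 3 in each direction, against 64.1% of all genes, 32.6% higher and 31.5% lower. The combination against DMSO also gave 6 calls, 3 in each direction, against 73.2% of all genes, 38.0% higher and 35.2% lower. These 3 comparisons share the DMSO libraries. The median log2 fold change of the 9 tested enzymes was -0.12, 0.17 and -0.15 in these comparisons, beside 0.01, 0.03 and 0.06 for all genes. In number, the calls were near what the share of all genes called would give, and the enzymes differed from each other in direction and size. Scaling by library size only moved the median of all genes in the combination against DMSO to 0.26, so small changes are relative to the scaling used.

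**Figure D2:**
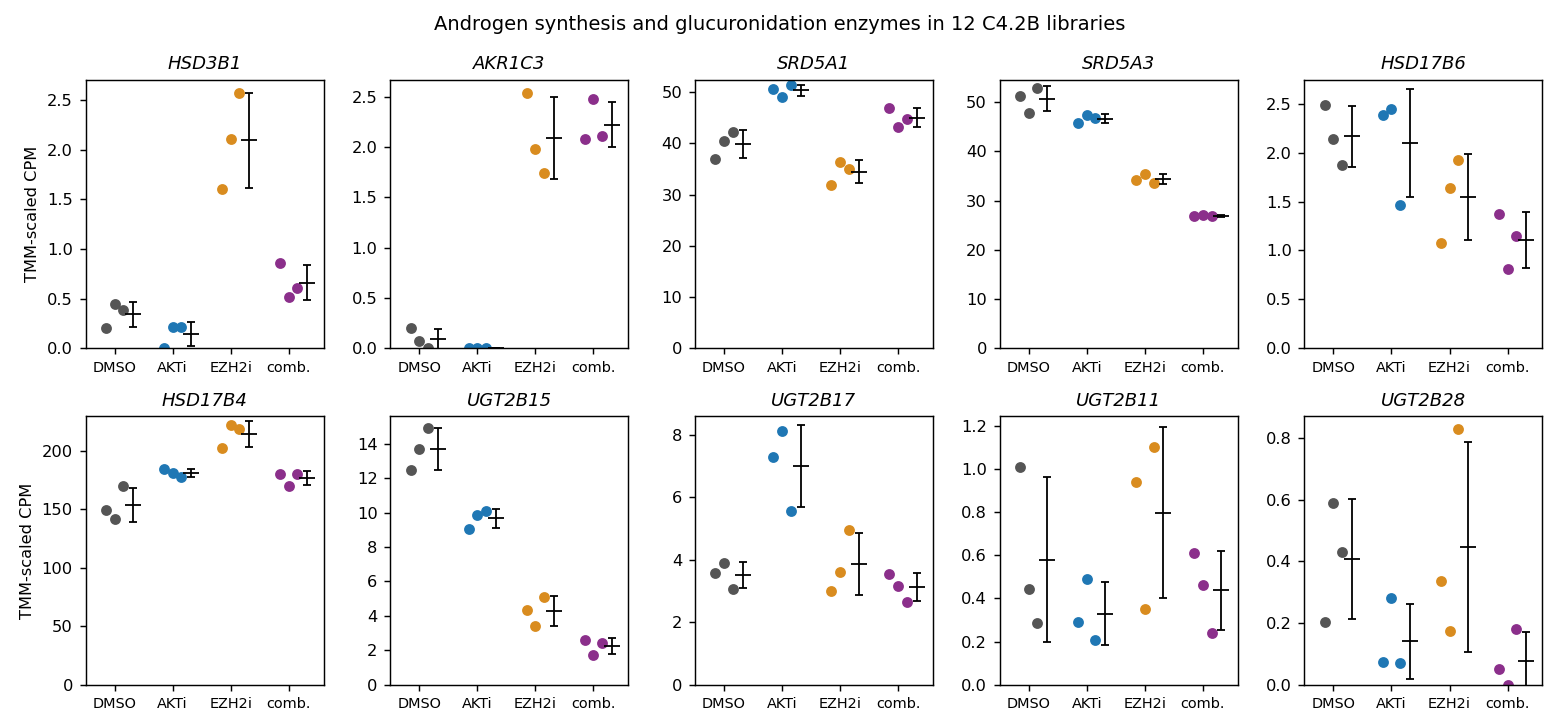
TMM-scaled CPM of the 10 enzymes in each library (points, replicates A to C from left to right) by arm, with the mean and SD of 3 libraries beside them; each panel has its own linear axis from 0. UGT2B15 and SRD5A3 are lowest in the combination (comb.), AKR1C3 is near 0 in DMSO and AKTi, and UGT2B17 is highest in AKTi.

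**Figure D3:**
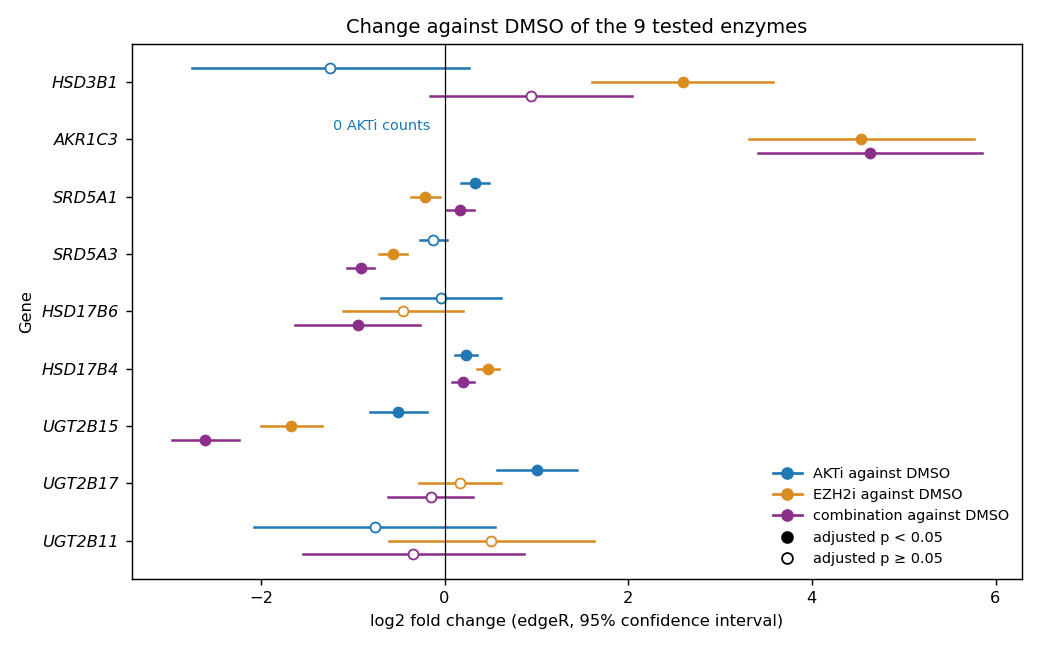
Log2 fold changes against DMSO of the 9 tested enzymes with 95% confidence intervals, for AKTi, EZH2i and the combination; filled points have an adjusted p-value below 0.05. UGT2B15 moves from -0.51 to -1.67 to -2.60, and AKR1C3 has no AKTi point because its 3 AKTi libraries held 0 counts.

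HSD3B1, which carries out the first step from the adrenal precursor, was higher in EZH2i and stood lower when AKTi was added. The gene lies at chr1:119507198-119515054 on hg38. Its raw counts were 3, 6 and 8 in DMSO, 0, 3 and 3 with AKTi, 24, 36 and 56 with EZH2i and 17, 9 and 10 with the combination. All 3 EZH2i libraries were above every library of the other arms. HSD3B1 passed the filter on low counts only through libraries exposed to tazemetostat, so its p-values are not separate support for the rise. The log2 fold change in EZH2i against DMSO was 2.59 (SE 0.49, edgeR adjusted p = 1.6e-05), and the ratio of scaled counts was 6.25 with a 95% counting interval of 3.74 to 11.1. The combination against EZH2i fell by 1.65 (SE 0.43, edgeR adjusted p = 0.0018). Against DMSO the combination had a log2 fold change of 0.94 (SE 0.54, edgeR adjusted p = 0.12), which was not called although its 3 libraries lay above the DMSO range. Against AKTi it was higher by 2.18 (SE 0.66, edgeR adjusted p = 0.0043), on 36 counts over the combination arm and 6 over the AKTi arm.

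AKR1C3 had the largest rise among the enzymes, on low counts. This reductase makes testosterone from androstenedione and also makes prostaglandins. Its raw counts were 3, 1 and 0 in DMSO and 0 in all 3 AKTi libraries, whereas they were 38, 34 and 38 in EZH2i and 41, 43 and 35 in the combination. The libraries exposed to tazemetostat and the others did not overlap. AKR1C3 passed the filter on low counts only through the former, so its p-values are not separate support for the rise. EZH2i against DMSO gave a ratio of scaled counts of 25.2, with a 95% counting interval of 9.56 to 94.0, and a log2 fold change of 4.54 (SE 0.60, edgeR adjusted p = 4.4e-08). In the combination the ratio was 27.3, with an interval of 10.4 to 102, and the log2 fold change 4.64 (SE 0.60, edgeR adjusted p = 1.7e-08). With 4 counts in the whole DMSO arm the size of the rise is poorly fixed. Leaving out 1 library moved the EZH2i value between 3.81 without DMSO replicate C and 5.82 without DMSO replicate A, and the combination value between 3.90 and 5.91 without the same libraries. The combination was at least 31.4-fold higher than AKTi, set against a floor of 3 counts over the AKTi arm. Between the combination and EZH2i the log2 difference was 0.10, with a 95% confidence interval of -0.65 to 0.85.

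The AKR1C neighbors were read beside AKR1C3 because they share sequence with it. AKR1C1 and AKR1C2, which inactivate dihydrotestosterone and progesterone among other steroids, had 1 and 3 counts over the DMSO arm and 2 and 0 over the AKTi arm. In EZH2i they had 18 and 46 counts beside 110 for AKR1C3, and in the combination 27 and 30 beside 119. The 3 copies thus had 8 counts together in DMSO, 2 with AKTi, 174 with EZH2i and 176 with the combination. Summed before the test, they were higher by 4.26 in EZH2i (SE 0.45, edgeR adjusted p = 1.6e-10) and by 4.28 in the combination (SE 0.45, edgeR adjusted p = 8.7e-11). Like AKR1C3 alone, the sum was high enough for the filter on low counts only in libraries exposed to tazemetostat. The p-values of the sum are thus not separate support for the rise. How reads were divided between the copies was not tested.

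**Figure D4:**
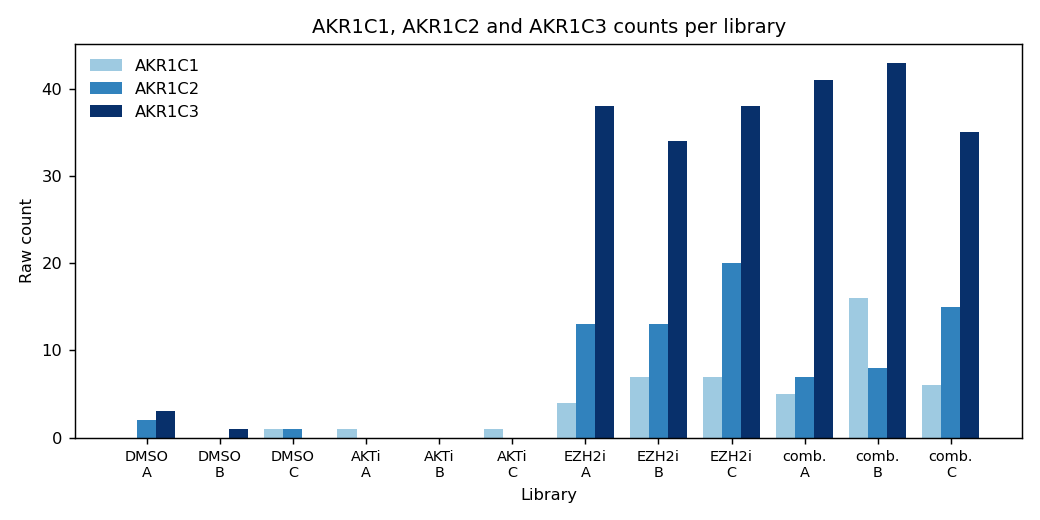
Raw counts of AKR1C1, AKR1C2 and AKR1C3 in each of the 12 libraries. Every EZH2i and combination library holds 34 to 43 AKR1C3 counts, and every DMSO and AKTi library holds 0 to 3.

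Both steroid reductases were lower in EZH2i, and SRD5A1 was higher in AKTi. SRD5A1, the reductase that predominates over SRD5A2 in castration-resistant disease, lies at chr5:6633343-6674386 and measured 36.9, 40.4 and 42.2 CPM in DMSO, 50.6, 49.2 and 51.4 with AKTi, 31.9, 36.4 and 35.1 with EZH2i and 47.0, 43.3 and 44.7 with the combination. All AKTi libraries were above the DMSO range and all EZH2i libraries were below it. In AKTi the log2 fold change was 0.34 (SE 0.08, edgeR adjusted p = 0.00042). In EZH2i it fell by 0.21 (SE 0.08, edgeR adjusted p = 0.017), a call lost under scaling by library size (-0.065), by the upper quartile (-0.090) and without DMSO replicate C (-0.16). The combination against DMSO was 0.17 higher (SE 0.08, edgeR adjusted p = 0.038), and this call was lost in 12 of 19 alternatives, with values from 0.11 without DMSO replicate A to 0.37 under scaling by library size. The combination exceeded EZH2i by 0.38 (SE 0.08, edgeR adjusted p = 6.2e-05), which held in all 19. SRD5A2 had 0 counts in all 12 libraries.

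SRD5A3, a reductase that acts on polyprenol for protein glycosylation and has been named as a steroid reductase as well, fell with tazemetostat and fell further in the combination. It lies at chr4:55346109-55373096. Its levels were 51.3, 47.9 and 52.9 CPM in DMSO, 45.7, 47.5 and 46.7 with AKTi, 34.2, 35.5 and 33.5 with EZH2i and 26.8, 27.2 and 26.9 with the combination. EZH2i and the combination overlapped neither each other nor DMSO. The log2 fold change against DMSO was -0.56 in EZH2i (SE 0.07, edgeR adjusted p = 1.9e-08) and -0.91 in the combination (SE 0.07, edgeR adjusted p = 1.3e-13). For AKTi it was -0.12 (SE 0.07, edgeR adjusted p = 0.18), which was not called. The combination was lower than EZH2i by a log2 fold change of -0.35 (SE 0.08, edgeR adjusted p = 0.00019) and lower than AKTi by -0.79 (SE 0.08, edgeR adjusted p = 1.4e-11).

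HSD17B6, the oxidative enzyme of the backdoor return to dihydrotestosterone, was lower in the combination on low counts. The gene is at chr12:56752161-56787790. It had 37, 29 and 39 raw counts in DMSO, 33, 35 and 21 with AKTi, 16, 28 and 42 with EZH2i and 27, 14 and 19 with the combination. On the CPM scale all 3 combination libraries were below the DMSO range, and EZH2i overlapped DMSO. The log2 fold change of the combination was -0.95 against DMSO (SE 0.34, edgeR adjusted p = 0.012) and -0.91 against AKTi (SE 0.34, edgeR adjusted p = 0.020). The first call was lost without combination replicate B (-0.77, adjusted p = 0.062 by edgeR), and the second without that library (-0.73), without AKTi replicate A (-0.87) and without AKTi replicate B (-0.80). EZH2i against DMSO had a log2 fold change of -0.45, with a 95% confidence interval of -1.11 to 0.20.

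HSD17B4 was the most abundant of the 10 enzymes and moved little. It lies at chr5:119452443-119637199. The levels were 149, 142 and 170.2 CPM in DMSO, 184, 181 and 177 with AKTi, 202, 222 and 219 with EZH2i and 180.3, 170.1 and 180.0 with the combination. EZH2i stood above all other libraries, and the combination touched the top of the DMSO range. The log2 fold change was 0.23 in AKTi (SE 0.06, edgeR adjusted p = 0.0019) and 0.48 in EZH2i (SE 0.06, edgeR adjusted p = 8.7e-09). In the combination it was 0.20 (SE 0.06, edgeR adjusted p = 0.0034), and 0.40 under scaling by library size. Without DMSO replicate B the AKTi value was 0.15 and the combination value 0.10, and neither was called, with edgeR adjusted p-values of 0.074 and 0.18. The combination was lower than EZH2i by a log2 fold change of -0.28 (SE 0.06, edgeR adjusted p = 0.00017). Thus the agents together gave less than the sum of their single effects on the log2 scale, with an interaction of -0.51 (SE 0.08, edgeR adjusted p = 1.2e-05). This interaction, the AKTi effect in tazemetostat-treated cells less that in untreated cells, was called for 28.2% of all genes, 10.7% above 0 and 17.5% below, and for 2 of the 9 tested enzymes, both below 0.

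UGT2B15 was the enzyme that fell most. It inactivates dihydrotestosterone and androstanediol and lies at chr4:68646630-68670628. The levels were 12.5, 13.7 and 14.9 CPM in DMSO, 9.04, 9.88 and 10.1 with AKTi, 4.35, 3.39 and 5.10 with EZH2i and 2.59, 1.73 and 2.42 with the combination. No library of 1 arm overlapped another arm. The log2 fold change against DMSO was -0.51 in AKTi (SE 0.15, edgeR adjusted p = 0.0068) and -1.67 in EZH2i (SE 0.16, edgeR adjusted p = 2.6e-11). In the combination it was -2.60 (SE 0.18, edgeR adjusted p = 1.0e-15), a level 6.08-fold lower than in DMSO. The combination was also lower than each agent alone, by a log2 fold change of -2.10 against AKTi (SE 0.19, edgeR adjusted p = 1.9e-12) and -0.94 against EZH2i (SE 0.20, edgeR adjusted p = 0.00015). The interaction was -0.43, with a 95% confidence interval of -0.94 to 0.08, and was not called (edgeR adjusted p = 0.21).

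UGT2B17, its near copy at chr4:68537184-68568527, did not follow. It glucuronidates testosterone and dihydrotestosterone. The levels were 3.57, 3.91 and 3.07 CPM in DMSO, 7.31, 8.13 and 5.56 with AKTi, 3.01, 3.62 and 4.96 with EZH2i and 3.55, 3.17 and 2.66 with the combination. Every AKTi library was above every library of the other arms, and the other 3 arms overlapped. The AKTi log2 fold change was 1.00 (SE 0.21, edgeR adjusted p = 0.00021). With tazemetostat present the rise was not seen, as the combination had a log2 fold change of -0.32 against EZH2i (95% confidence interval -0.77 to 0.13). Against DMSO the log2 fold change was 0.17 in EZH2i (95% confidence interval -0.28 to 0.62) and -0.15 in the combination (-0.61 to 0.31). The sign of this combination value against DMSO turned when libraries were scaled by their size (0.043) or by the upper quartile (0.032). The combination was lower than AKTi by a log2 fold change of -1.15 (SE 0.21, edgeR adjusted p = 1.4e-05), and the interaction was -1.32 (SE 0.31, edgeR adjusted p = 0.0011).

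The balance of the 2 copies does not depend on how libraries are scaled. UGT2B15 took 77.7, 77.8 and 82.9% of the counts of the pair in DMSO and 55.3, 54.9 and 64.4% in AKTi. It took 59.1, 48.3 and 50.7% in EZH2i and 42.1, 35.3 and 47.6% in the combination. The DMSO libraries stood above all others and the combination libraries below all others. The mean ± SD was 79.5% ± 2.98 (n = 3) in DMSO, 58.2% ± 5.41 with AKTi, 52.7% ± 5.66 with EZH2i and 41.7% ± 6.18 with the combination. A two-sided exact permutation test of 3 libraries against 3 gave p = 0.1 for 5 of the 6 pairs of arms, the smallest value it can give, and 0.3 for EZH2i against AKTi (adjusted over the 6 pairs, 0.12 and 0.3). Summed as 1 gene, the copies had a log2 fold change of -0.048 in AKTi (SE 0.13, edgeR adjusted p = 0.80), -1.07 in EZH2i (SE 0.14, edgeR adjusted p = 1.2e-08) and -1.68 in the combination (SE 0.14, edgeR adjusted p = 4.2e-13). The AKTi calls of the single copies, of opposite direction, were thus lost in the sum, and the fall in EZH2i and in the combination was not.

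**Figure D5:**
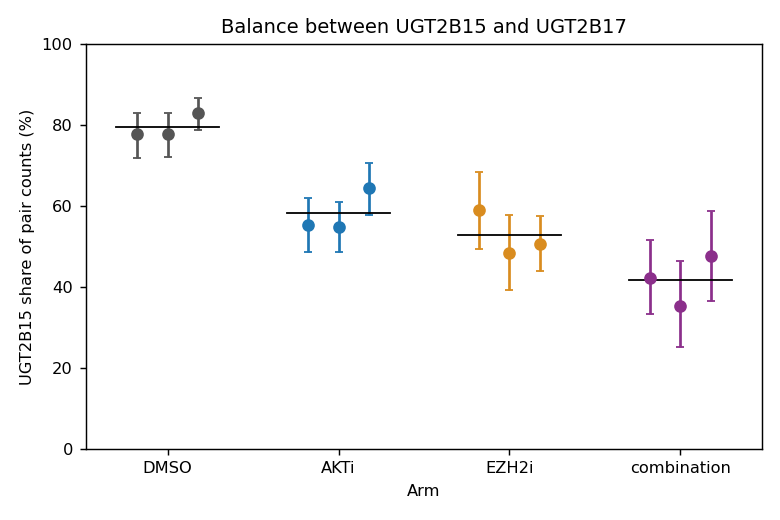
UGT2B15 counts as a percent of the UGT2B15 and UGT2B17 counts in each library, with exact 95% binomial intervals that cover counting error only; black lines are arm means (79.5, 58.2, 52.7 and 41.7%). The share falls from DMSO to the combination, and the AKTi and EZH2i libraries overlap.

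UGT2B11 and UGT2B28, which act on fatty acid metabolites and steroids, were near the limit of detection. UGT2B11, at chr4:69199951-69214731, had 15, 6 and 6 raw counts in DMSO, 4, 7 and 3 with AKTi, 14, 6 and 24 with EZH2i and 12, 8 and 4 with the combination. The arms overlapped and no comparison was called, and the 95% confidence interval of the log2 fold change in the combination against DMSO ran from -1.54 to 0.86. UGT2B28, at chr4:69280499-69295050, was too low to test, with 3, 8 and 9 raw counts in DMSO, 1, 4 and 1 with AKTi, 5, 3 and 18 with EZH2i and 1, 0 and 3 with the combination. Over the arms this was 4 counts in the combination against 20 in DMSO, a ratio of scaled counts of 0.184 with a 95% counting interval of 0.0457 to 0.549 that leaves out the spread between libraries. UGT2B10, a copy with 94.96% coding identity to UGT2B11, had 19 counts over the DMSO arm, 5 with AKTi, 21 with EZH2i and 0 with the combination. The sum of UGT2B10, UGT2B11 and UGT2B28 was lower in the combination than in DMSO by a log2 fold change of -1.37 (SE 0.46, edgeR adjusted p = 0.0078). It was also lower in AKTi, by -1.19 (SE 0.47, edgeR adjusted p = 0.038), and had a value of 0.29 in EZH2i (SE 0.40, edgeR adjusted p = 0.54).

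The combination was also set against each agent alone. Against AKTi, 6 enzymes were called, 2 higher (AKR1C3 and HSD3B1) and 4 lower (UGT2B15, UGT2B17, SRD5A3 and HSD17B6), beside 64.2% of all genes, 32.1% in each direction. Both that were higher had passed the filter only through libraries exposed to tazemetostat. Against EZH2i, 5 were called, with SRD5A1 higher and UGT2B15, SRD5A3, HSD17B4 and HSD3B1 lower, beside 46.7% of all genes, 21.1% higher and 25.7% lower. UGT2B15 and SRD5A3 were called lower in both.

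Levels of different genes were compared per kilobase of the length listed with the counts, as CPM per kb. In DMSO the order was HSD17B4 (14.4 ± 1.38, SD, n = 3), SRD5A3 (11.5 ± 0.580), UGT2B15 (6.59 ± 0.592), SRD5A1 (5.17 ± 0.353), UGT2B17 (1.69 ± 0.203) and HSD17B6 (0.954 ± 0.137), and these 6 did not overlap. UGT2B11, UGT2B28 and HSD3B1 followed at 0.248, 0.223 and 0.140 with overlapping libraries, and AKR1C3 was last at 0.0203. In the combination UGT2B15, at 1.08 ± 0.218, came after UGT2B17, at 1.505 ± 0.215, and no library of 1 overlapped the other. In EZH2i these copies overlapped, at 2.06 and 1.86. AKR1C3, at 0.491 ± 0.0489, and HSD17B6, at 0.488 ± 0.124, were side by side in the combination and overlapped.

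Genes that feed these enzymes, related enzymes, genes that handle glucuronides and androgen-responsive genes were counted in 6 lists of 73 genes. The comparison was the combination against DMSO, where 73.2% of all tested genes were called, 38.0% higher and 35.2% lower. Of 8 genes of upstream steroid synthesis, 5 were tested, 4 were lower and 0 higher beside 35.2% and 38.0% of all genes, with a list median of -0.22 beside 0.06 for all genes, with 2 called under scaling by library size and 2 by the upper quartile. CYB5A, the cytochrome that supports the lyase step of CYP17A1, fell most, by a log2 fold change of -1.39 (SE 0.07, edgeR adjusted p = 1.4e-20), and POR, the electron donor of microsomal cytochromes, followed at -0.58 (SE 0.06, edgeR adjusted p = 3.7e-10). FDX1 and FDXR, the electron carriers of mitochondrial steroid synthesis, were at -0.22 and -0.20. CYP17A1 itself had 1 count over the 12 libraries. Of 8 genes that take up or handle sulfated precursors, 4 were tested, PAPSS1 was higher (0.22) and SULT2B1, a sulfotransferase of cholesterol and dehydroepiandrosterone, lower (-1.46, SE 0.16, edgeR adjusted p = 4.4e-10), with a list median of 0.02.

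Among 22 other hydroxysteroid dehydrogenases and reductases, 12 were tested, 7 were higher and 4 lower, beside 38.0% and 35.2% of all genes, with a median of 0.92. Of these, HSD17B14 and AKR1C2 reached 10 counts only in libraries exposed to tazemetostat, so a difference between arms was a condition of their being tested, and the list's count and median include them. HSD17B14, which oxidizes estradiol and androgens at the D ring, had 0, 2 and 0 raw counts in DMSO, 3, 2 and 7 with AKTi, 20, 21 and 18 with EZH2i and 58, 25 and 41 with the combination. Its ratio of scaled counts in the combination was 57.0, with a 95% counting interval of 15.4 to 476. AKR1C2 was higher on the counts given above, with a ratio of 9.19 and an interval of 2.86 to 47.0. HSD17B10, a mitochondrial dehydrogenase, and HSD17B8, which serves mitochondrial fatty acid synthesis, were lower, at -1.16 (SE 0.06, edgeR adjusted p = 4.7e-20) and -1.09 (SE 0.09, edgeR adjusted p = 4.5e-13). The others called higher were HSD17B11 (2.09), HSD11B2 (1.70), RDH11 (1.64), HSD17B1 (0.98) and RDH16 (0.85). The others called lower were HSD17B7 (-0.55) and HSD17B12 (-0.48). RDH11 had a mean of 193 CPM in DMSO and 601 in the combination. Of 18 other glucuronosyltransferases, only UGT8, which makes galactolipids, was tested and it was lower, at -0.91 (SE 0.09, edgeR adjusted p = 4.2e-11).

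Glucuronidation also needs UDP-glucuronate and a way out of the cell for its products. Of 9 such genes 7 were tested, 2 were higher and 3 lower, near the 73.2% of all genes called, with a median of -0.10. UGDH, which makes UDP-glucuronate, was lower in EZH2i (log2 fold change -0.72, edgeR adjusted p = 5.9e-10) and in the combination (-1.00, SE 0.08, edgeR adjusted p = 1.1e-13). The exporter ABCG2 was lower in the combination, at -2.60 (SE 0.28, edgeR adjusted p = 2.5e-10), whereas the exporter ABCC4 was higher, at 1.48 (SE 0.06, edgeR adjusted p = 1.8e-23). GUSB, the glucuronidase that removes the sugar, was higher by 0.21.

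Androgen-responsive genes were read beside the UGT2B genes because androgens repress UGT2B15 and UGT2B17. All 8 on the list were tested, 6 were higher and 2 lower in the combination, beside 38.0% and 35.2% of all genes, with a median of 1.81. KLK3, which encodes prostate-specific antigen, was higher by log2 fold changes of 0.77 with AKTi, 1.07 with EZH2i and 1.52 with both agents (edgeR adjusted p = 3.3e-15, 4.2e-20 and 4.0e-25). TMPRSS2, an androgen-induced protease, and SLC45A3, the prostein gene, rose most in the combination, by 3.62 and 2.75, and the androgen-induced chaperone gene FKBP5 was lower, at -1.65 (SE 0.06, edgeR adjusted p = 1.7e-23), together with HOXB13 at -0.53. FKBP5 was also lower with AKTi, at -0.26, and with EZH2i, at -0.84 (edgeR adjusted p = 0.00040 and 5.9e-15). UGT2B15 was thus lower in each treated arm, where KLK3 was higher and FKBP5 lower. UGT2B17 was higher in AKTi, and no test of a relation across the 4 arms was made.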

How the data were processed

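PolyA RNA from C4.2B cells in 4 arms of 3 libraries was sequenced, aligned to hg38 with STAR and counted on genes with HTSeq, per the labels. Versions, annotation, strand setting, read length and the assignment of libraries to sequencing runs are not given in the sources used here. The deposited values are whole-number counts of 58735 genes and a signal table of counts normalized by the authors with DESeq2, which was checked to be the counts over a constant for each library (tolerance 1e-05, 56994 names) and was used for nothing else. Gene lengths are the authors' column in the deposited counts.

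Counts were analysed in R 4.3.3 and edgeR 4.0.16. The steps were filterByExpr at a minimum count of 10 and total of 15 (16646 genes), TMM scaling, glmQLFit with 1 mean per arm over 12 libraries, and contrasts tested with glmQLFTest, with Benjamini-Hochberg adjustment over all tested genes at 0.05. Ratios of low counts carry exact conditional intervals, and these and the exact binomial intervals of shares cover counting error only. Totals were 14133755 to 22276417 counts per library. Libraries of 1 arm differed by more than sampling noise (chi-square per gene 2.57 to 7.77). Sequences came from GENCODE v44 and RefSeq (GRCh38.p14), read with Python 3.11.15, numpy 2.4.6 and Biopython 1.88.

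The enzymes, the 6 lists and the tests were chosen with earlier results of these data known. Named list genes are KLK3 and, per list, up to 2 called genes with the largest and 2 with the smallest log2 fold change in the combination against DMSO. Of the near copies of an enzyme, AKR1C1, AKR1C2 and UGT2B10 are named as well. HSD3B2 and UGT2B7, which share sequence with HSD3B1 and UGT2B11, are in the lists but not described. From the androgen-responsive list and the luminal markers 1 gene was left out and is not reported here. SRD5A2, CYP17A1 and the further called genes among the other hydroxysteroid dehydrogenases and reductases were named after their values were seen. The alternatives were DESeq2 1.42.0, library size only, upper-quartile scaling, 2 other filters, only the libraries compared, a replicate block, summed copies and each library left out. The UGT2B15 share with libraries left out was added after the data were seen. The fits were also run on simulated counts of the kind edgeR assumes, with known changes in the combination arm only. That run did not test how reads are assigned between near copies.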

Additional observations from a re-analysis of the deposited data

Results flagged for a closer look

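The interaction was called for 2 of the 9 tested enzymes, which means that the effect of AKTi differed between cells with and without tazemetostat. For UGT2B17 it was -1.32 on the log2 scale (SE 0.31, edgeR adjusted p = 0.0011), with AKTi at 1.00 against DMSO and the combination at -0.32 against EZH2i. For HSD17B4 it was -0.51 (SE 0.08, edgeR adjusted p = 1.2e-05), with 0.23 and -0.28 for the same contrasts. Interactions were called for 28.2% of all tested genes.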

How the results depend on the processing

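The number of enzymes called stayed within 1.5 times that reported in all 6 comparisons under every alternative that gave a value, and with single libraries left out it was 3 to 5 for AKTi, 5 to 6 for EZH2i, 4 to 6 for the combination against DMSO, 5 to 7 against AKTi, 5 against EZH2i and 2 to 3 for the interaction. The replicate letters do not pair the libraries: 18 correlations between same-letter deviations were -0.06 to 0.07, with 0 above 0.1. The replicate block left the counts at 4, 6, 6, 6, 5 and 2 and changed no call. Of 366 fold changes under the other alternatives, 343 kept direction and call, 6 lost and 7 gained a call, and 10 turned. UGT2B17 turned to -0.048 in AKTi and -1.07 in EZH2i when summed with UGT2B15, by the construction of the sum, and to 0.043 and 0.032 in the combination against DMSO when libraries were scaled by their size and by the upper quartile. UGT2B11 turned to -0.18 in the combination against AKTi in its sum. HSD17B6 in AKTi turned to 0.021 and 0.020 with these scalings, and HSD17B4 in the combination against AKTi to 0.11, 0.095 and 0.034 with these and at least 10 counts in every library. Of 648 values with a library left out, 609 kept direction and call, 16 lost and 9 gained a call, and 14 turned. Those that turned were values not called, namely HSD17B6 in AKTi (range -0.19 to 0.14), UGT2B17 in EZH2i (-0.10 to 0.29), UGT2B11 in the combination against DMSO (-0.72 to 0.31) and in the interaction (-0.75 to 0.34), AKR1C3 in the combination against EZH2i (-0.0032 to 0.22), and the interactions of SRD5A1 (-0.030 to 0.095) and HSD3B1 (-0.99 to 0.0088). Without DMSO replicate C, AKR1C3 was called in AKTi (edgeR adjusted p = 0.034) and in the interaction (edgeR adjusted p = 0.047), although its AKTi libraries hold 0 counts. SRD5A1 in the combination against AKTi, not called at -0.16, was called in 8 alternatives. The cause of these changes was not tested where no construction is named. At least 1 count in total raised the other glucuronosyltransferases called from 1 to 4. At least 10 counts in every library left AKR1C3, HSD3B1 and UGT2B11 untested.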
